A study of Mus musculus with 12 samples.

Results

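Bhmt and Bhmt2, the pair of mouse homocysteine methyltransferase genes, were followed in total RNA of 12 mice. They were taken by name as 2 of the 736 rows of a metabolic nCounter panel, a method that counts colour-coded probes hybridised to single RNA molecules without amplification. All 12 mice were male and on the C57BL6-NJ background, and each of 4 groups held 3 mice. Mice with a constitutive SphK2 KO, which lack sphingosine kinase 2 in every cell, were fed Western diet and sugar water (WDSW, labelled age 217 to 252 days). WT mice received the same diet (226 to 232 days). SphK2 KO mice were also fed control diet and normal water (CDNW, 250 to 259 days), as were WT mice (231 to 232 days). The study asked how diet and SphK2 genotype act on metabolic gene expression in an early model of metabolic dysfunction-associated steatohepatitis. No tissue is named in the labels, bulk RNA gives no cell types, and nothing states that the mice were littermates.

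Bhmt transfers a methyl group from betaine, an oxidation product of choline, to homocysteine, which yields methionine and dimethylglycine. It is an abundant enzyme of the hepatocyte, where it links choline breakdown to the methionine cycle and to the supply of S-adenosylmethionine. Bhmt2 methylates homocysteine with S-methylmethionine as the methyl donor and does not use betaine. The genes lie next to each other on mouse chromosome 13 with 0 annotated genes between them, and the next protein-coding gene beyond Bhmt2 is Dmgdh, which encodes the dehydrogenase that takes up dimethylglycine.

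The promoters are shown because the paralogues, although neighbours, start from windows of very different base composition. Both are the 250 bases before the annotated start (RefSeq, GRCm38.p6, minus strand), at chr13:93637759-93638008 for Bhmt and chr13:93674303-93674552 for Bhmt2. Capitals mark AGGTCA, the half-site bound by many nuclear receptors, in Bhmt and GGGCGG, the GC box, in Bhmt2.
Bhmt: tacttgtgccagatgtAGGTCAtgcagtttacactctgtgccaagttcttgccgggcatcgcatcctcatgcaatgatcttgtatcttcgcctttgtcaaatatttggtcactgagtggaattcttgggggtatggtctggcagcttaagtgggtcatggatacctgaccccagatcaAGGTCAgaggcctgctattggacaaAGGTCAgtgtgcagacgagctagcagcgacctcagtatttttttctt
Bhmt2: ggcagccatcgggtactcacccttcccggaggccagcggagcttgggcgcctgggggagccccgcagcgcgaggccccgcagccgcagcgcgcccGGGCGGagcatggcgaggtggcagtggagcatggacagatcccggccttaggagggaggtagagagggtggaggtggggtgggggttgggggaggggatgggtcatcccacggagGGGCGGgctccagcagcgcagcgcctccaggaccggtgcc
The Bhmt window had a GC content of 48.0% and 5 CpG dinucleotides, whereas the Bhmt2 window had 74.0% and 20. Across 32536 distinct mouse promoter windows of the same length the median GC content was 52.4%, and 95.4% of them were at or below that of Bhmt2. AGGTCA was found 3 times in the Bhmt window, starting 234, 72 and 47 bases before the start, and 0 times in that of Bhmt2. GGGCGG was found 2 times in the Bhmt2 window and 0 times in that of Bhmt. CCAAT was found 1 time, in the Bhmt window, and TATAAA in neither. Both strands were searched for these 4 motifs, which share no matched bases here. Of all windows, 14.0% held AGGTCA, 33.0% GGGCGG, 33.8% CCAAT and 12.3% TATAAA. A match is a string of letters and not evidence of a bound factor.

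Several facts of the whole series touch these values. Values were a normalized signal, in each library a count multiplied by a single factor, and these counts summed to 1138914 for Western-diet WT replicate 3 and to 1702816 to 1924846 elsewhere. Row names sat on implausible levels after Cat in the table (the row named Gapdh was at the lowest listed value, 21, in 11 of 12 libraries), so only the 111 rows from A2m to Cat, which include both Bhmt genes, are described as genes. Of 16 hepatocyte markers, 10 lay in this part, and none was at 21 in any library, whereas no marker of macrophages, lymphocytes, stellate, endothelial or bile duct cells lay in it. Shifts in those other cells could therefore not be examined. SphK2 itself has no row, so the genotypes are those of the labels. The ages of 4 knockout mice lie above the 196 to 238 days that the growth protocol allows. On the first principal component of 513 other rows, which held 66.1% of the variance, control-diet knockout replicate 2 (-4.92), Western-diet knockout replicate 2 (-1.98) and control-diet WT replicate 2 (1.91) lay apart from their genotypes. The remaining knockout libraries had 5.73 to 10.0 and the remaining WT libraries -8.01 to -3.94.

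Both genes were measured far above the lowest listed value in all 12 libraries. The Bhmt signal ranged from 29104 to 56692, a 1.95-fold span, and rested on 30972 to 59408 counts. The Bhmt2 signal ranged from 3213 to 5384, a 1.68-fold span, and rested on 3340 to 5341 counts. Counting error was therefore at most 0.568% for Bhmt and 1.73% for Bhmt2, small against the spread between mice. Each probe binds with its own efficiency, so the higher Bhmt signal cannot be read as a ratio of transcripts, and only changes are compared between the paralogues.

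**Figure D1:**
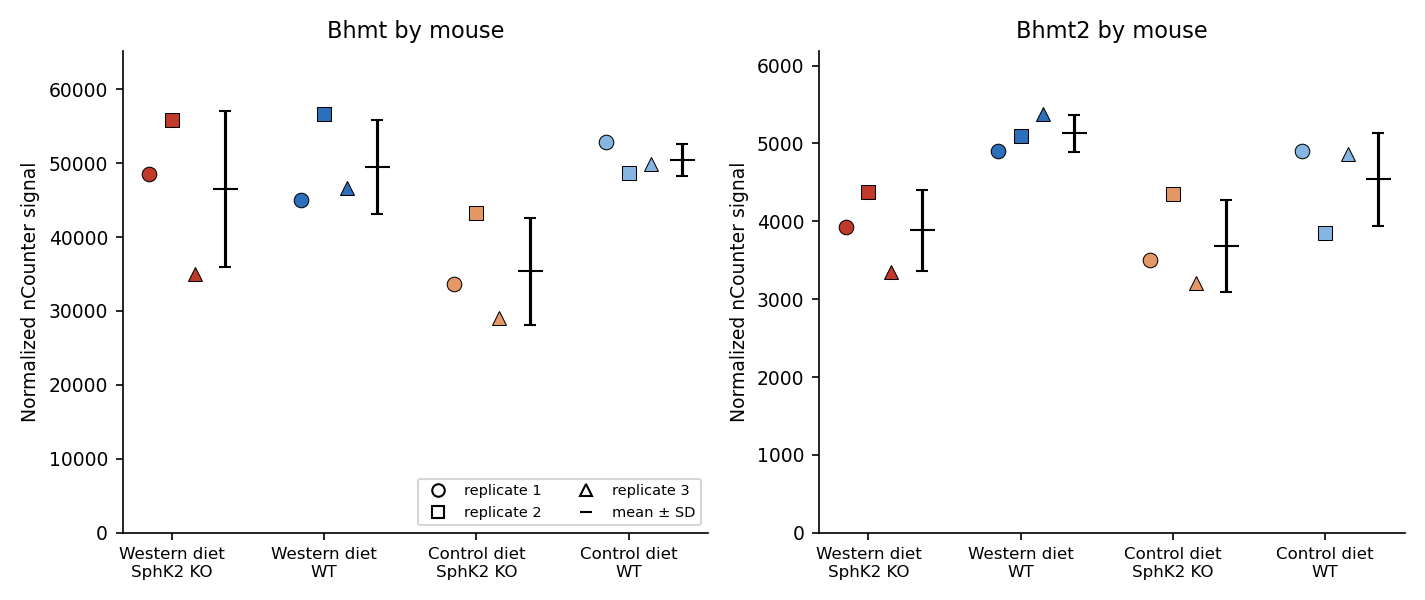
Normalized nCounter signal (y axis, from 0) of Bhmt and Bhmt2 in each of 12 mice, by group (x axis); black bars are the mean ± SD of 3 mice. On Western diet all 3 knockout mice lie below all 3 WT mice for Bhmt2 and not for Bhmt, and on control diet for Bhmt and not for Bhmt2.

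On Western diet Bhmt2 was lower in every knockout than in every WT mouse, while the Bhmt values of the genotypes overlapped. Bhmt2 was 3928, 4382 and 3348 in knockout mice, against 4905, 5097 and 5384 in WT mice. The groups did not overlap, and the highest knockout mouse lay 523 below the lowest WT mouse. Means were 3886 ± 518 in knockout and 5128 ± 241 in WT mice (SD, n = 3 each), 24.2% lower in knockout mice. The log2 fold change was -0.41 ± 0.14 (SE; 95% interval -0.73 to -0.08), and limma's adjusted p over 736 rows was 0.161 (unadjusted 0.0196), so it did not pass the threshold of 0.05. Of all rows on this diet, 8.97% were lower in every knockout than in every WT mouse, 20.9% had an unadjusted p under 0.05 and 0.136% passed the threshold. In bulk RNA a smaller number of expressing cells and less RNA per cell cannot be told apart.

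Bhmt was 48569, 55773 and 35011 in Western-diet knockout mice, against 45043, 56692 and 46575 in Western-diet WT mice. The groups overlapped, with knockout replicate 3 alone below every WT mouse. Means were 46451 ± 10542 in knockout and 49437 ± 6330 in WT mice (SD, n = 3 each). The log2 fold change was -0.11 ± 0.19 (adjusted p = 0.819 by limma) and its 95% interval of -0.54 to 0.33 includes changes as large as that of Bhmt2. Without Western-diet knockout replicate 3 the fold change was 0.08, in the opposite direction, and with median centring it was -0.27.

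On control diet it was Bhmt that separated the genotypes, while Bhmt2 was also lower on average in knockout mice. Bhmt was 33666, 43259 and 29104 in knockout mice, against 52873, 48629 and 49893 in WT mice. The groups did not overlap, and a gap of 5370 separated them. Means were 35343 ± 7225 in knockout and 50465 ± 2179 in WT mice (SD, n = 3 each), 30.0% lower in knockout mice. The log2 fold change was -0.53 ± 0.19 (95% interval -0.97 to -0.10), which did not pass over all rows (adjusted p = 0.65, unadjusted 0.0221, by limma). On this diet 2.85% of rows were lower in every knockout than in every WT mouse, and 0% passed the threshold, with 4.76% at an unadjusted p under 0.05.

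Bhmt2 was 3502, 4346 and 3213 in control-diet knockout mice, against 4905, 3855 and 4865 in control-diet WT mice. The groups overlapped through replicate 2 of each, the highest knockout and the lowest WT mouse. Means were 3687 ± 589 in knockout and 4542 ± 595 in WT mice (SD, n = 3 each). The log2 fold change was -0.30 ± 0.14 (95% interval -0.63 to 0.02), with an adjusted p of 0.65 by limma. The mean was 18.8% lower in knockout mice, who were the lower ones in 8 of 9 pairs of a knockout and a WT mouse. With array weights the control-diet fold changes of Bhmt (-0.73) and Bhmt2 (-0.49) passed (adjusted p = 0.0183 each), as did that of Bhmt2 on Western diet (-0.35, adjusted p = 0.00413), where 208 and 331 of 736 rows passed. The estimate of these weights did not fully converge, so calls under them, here and below, are given as an alternative only.

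Averaged over the diets, both fold changes lay below 0 and close to each other. That of Bhmt2 was -0.36 ± 0.10 (95% interval -0.59 to -0.13, adjusted p = 0.149) and that of Bhmt -0.32 ± 0.14 (-0.63 to -0.01, adjusted p = 0.186) by limma. Neither passed, and 0% of rows did, although 25.5% had an unadjusted p under 0.05, as both genes did (0.00683 and 0.0431). The median log2 fold change of all rows was 0.01. Bhmt2 passed without control-diet knockout replicate 2 (-0.42, adjusted p = 0.0307), where 132 of 736 rows also passed. It passed as well without both control-diet libraries numbered 2 (-0.48, adjusted p = 0.011, 155 rows), which were chosen by their values. With array weights Bhmt2 (-0.42) and Bhmt (-0.34) both passed over both diets, as did 379 of 736 rows. With age as a covariate the averaged fold changes were -0.26 ± 0.12 for Bhmt2 (adjusted p = 0.482) and -0.12 ± 0.14 for Bhmt (adjusted p = 0.8). The age term in that fit rests mostly on Western-diet knockout replicate 3, as described below. Library medians averaged 0.16 (log2) higher in knockout than in WT libraries on Western and 0.17 higher on control diet, so centring on them lowers every genotype fold change by that amount. It gave -0.48 for Bhmt over both diets and -0.47 for Bhmt2 on control diet, which did not pass.

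**Figure D2:**
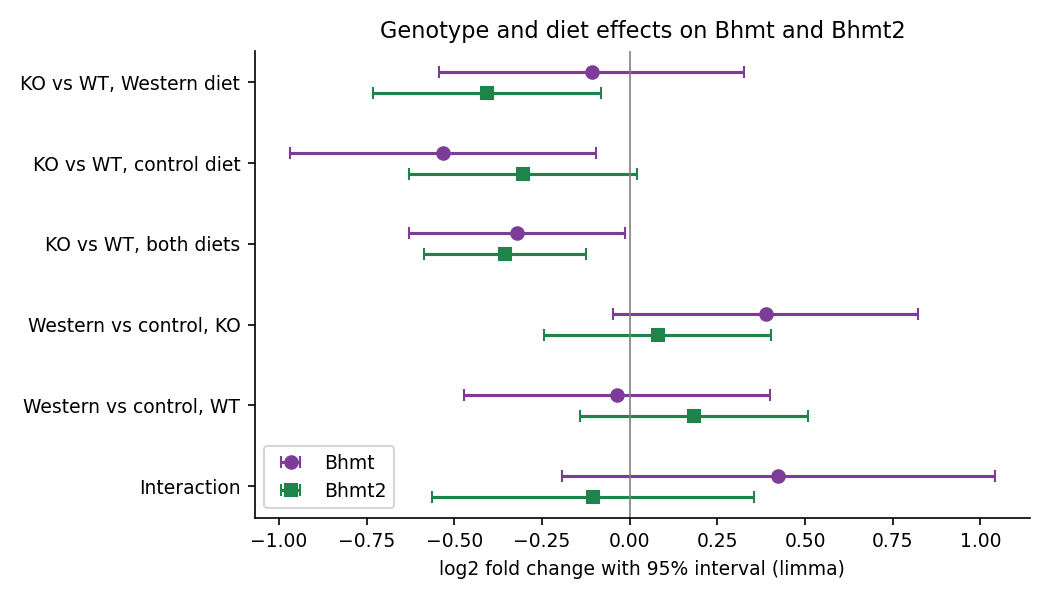
Limma log2 fold changes (x axis) of Bhmt (circles) and Bhmt2 (squares) for 6 contrasts (y axis), with 95% intervals. Knockout against WT gave -0.11 for Bhmt and -0.41 for Bhmt2 on Western diet, and -0.53 and -0.30 on control diet.

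Diet was compared within each genotype. In knockout mice Bhmt averaged 46451 ± 10542 on Western diet and 35343 ± 7225 on control diet, a log2 fold change of 0.39 ± 0.19, and in WT mice 49437 ± 6330 on Western and 50465 ± 2179 on control diet (SD, n = 3 each), a fold change of -0.04 ± 0.19. Bhmt2 averaged 3886 ± 518 on Western and 3687 ± 589 on control diet in knockout mice (0.08 ± 0.14). In WT mice it averaged 5128 ± 241 on Western and 4542 ± 595 on control diet (0.18 ± 0.14). None of these passed (adjusted p = 0.951 to 1 by limma, with 0% of rows past the threshold in either genotype, and 2.31% in knockout and 6.66% in WT mice at an unadjusted p under 0.05), and the diets overlapped in all 4 comparisons. In WT mice the overlap for Bhmt2 was a margin of 0.83 between the lowest Western-diet and the highest control-diet mouse. With array weights the fold change of Bhmt in knockout mice passed (0.64, limma adjusted p = 0.0246), as did 42 of 736 rows. The sign of the small fold changes was unstable. That of Bhmt in WT mice was 0.03 without Western-diet WT replicate 1 and 0.0028 without Western-diet WT replicate 3. That of Bhmt2 in knockout mice was -0.01 without Western-diet knockout replicate 2 and -0.01 without control-diet knockout replicate 3. The interaction, the genotype effect on Western minus that on control diet, was 0.42 ± 0.27 for Bhmt (adjusted p = 0.963) and -0.10 ± 0.20 for Bhmt2 (adjusted p = 1), with 0% of rows called and 5.98% at an unadjusted p under 0.05. With array weights that of Bhmt passed (0.78, adjusted p = 0.0409, with 20 rows called). For Bhmt2 it was 0.02 without control-diet knockout replicate 2 and 0.01 without control-diet WT replicate 2.

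Whether genotype acted differently on the paralogues was asked within libraries, since log2 Bhmt minus log2 Bhmt2 cancels each library's scale. On Western diet this difference was 3.63, 3.67 and 3.39 in knockout mice, against 3.20, 3.48 and 3.11 in WT mice. Knockout mice were higher by 0.30 on average, with overlapping groups (exact two-sided permutation p = 0.2, where 3 against 3 cannot go below 0.1). On control diet it was 3.26, 3.32 and 3.18 in knockout mice, against 3.43, 3.66 and 3.36 in WT mice. Knockout mice were lower by 0.23 on average (-0.23, exact permutation p = 0.1, the smallest possible), and all 3 lay below all 3 WT mice.

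Averaged over the diets these opposite shifts left 0.04 (exact permutation p = 0.785 over 400 relabellings within diets). The genotype effects on the difference were 0.53 apart between the diets (exact two-sided permutation p = 0.015, 0.06 after Benjamini-Hochberg adjustment over the 4 tests of this difference). This last test was added after the values had been seen. Relabelling within diets takes genotype to have no effect on either diet, so its p-value is not a test of equal effects alone. The gap between the diets ranged from 0.44 to 0.63 when each library was left out in turn (exact permutation p = 0.01 to 0.04). These p-values are unadjusted and reuse the values that drew attention to the contrast.

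**Figure D3:**
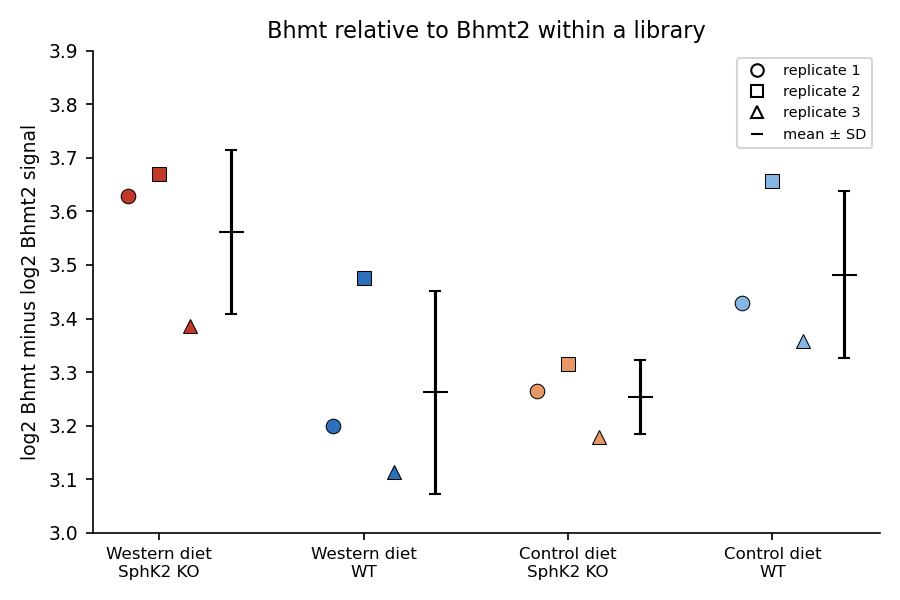
Log2 Bhmt minus log2 Bhmt2 signal (y axis, not starting at 0) in each of 12 libraries by group (x axis), with mean ± SD of 3 mice. Knockout mice average 0.30 above WT mice on Western diet and 0.23 below them on control diet.

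The Bhmt signal was lower in the mice labelled older. The 4 mice labelled 250 to 259 days old, all of them knockout, had a Bhmt signal of 29104 to 43259, and the 8 mice labelled 217 to 232 days had 45043 to 56692, with no overlap. How many of all rows separate at this age split was not counted, so the separation cannot be called particular to Bhmt. Among knockout mice, the 2 labelled 217 and 221 days, both on Western diet, had 48569 and 55773, within the range of the 6 WT mice (45043 to 56692). For Bhmt2 the older knockout mice had 3213 to 4346, the younger knockout mice 3928 and 4382, and the WT mice 3855 to 5384. The 3 WT mice on Western diet had a Bhmt2 signal of 4905 to 5384, above both younger knockout mice. How many of all rows separate in this way was not counted, and the part of age in the Bhmt2 difference was not tested. On control diet every knockout mouse was labelled older than every WT mouse, so age and genotype cannot be told apart there. With age as a covariate the control-diet fold change was -0.16 ± 0.21 for Bhmt and -0.12 ± 0.19 for Bhmt2, while that of Bhmt2 on Western diet was -0.39 ± 0.14 (adjusted p = 0.17 to 1 by limma). The diet fold change of Bhmt in knockout mice was then -0.0021 ± 0.22 and that of Bhmt2 -0.11 ± 0.20. The interaction was then 0.09 ± 0.26 for Bhmt and -0.27 ± 0.23 for Bhmt2. The age term of this fit is estimated from age differences within groups. Labelled ages ran from 217 to 252 days in Western-diet knockout mice and over far narrower spans elsewhere (250 to 259, 226 to 232 and 231 to 232). The age term therefore rests mostly on Western-diet knockout replicate 3 (252 days, Bhmt 35011), whose age is among those in doubt. Because 4 of the labelled ages are in doubt, ages were not used in the primary fit. The mice form separate age clusters, so no correlation with age is given.

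**Figure D4:**
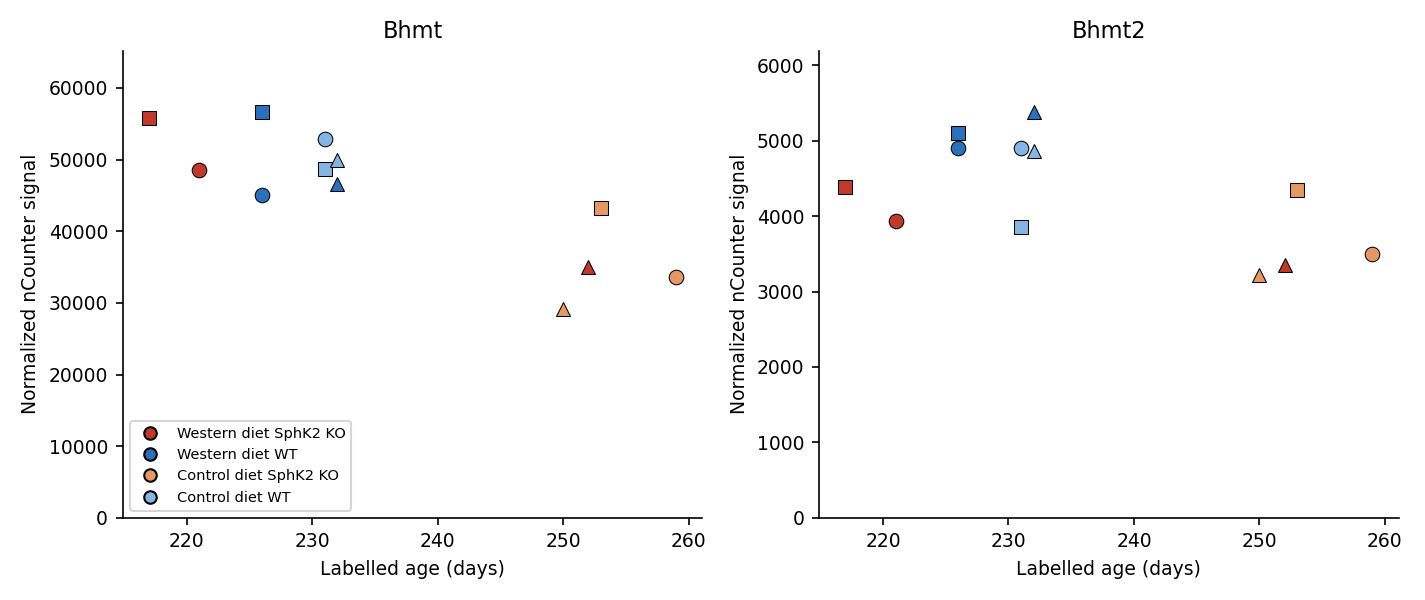
Normalized signal of Bhmt and Bhmt2 (y axes, from 0) against labelled age in days (x axis) for 12 mice, coloured by group. The 4 knockout mice of 250 days or more have the lowest Bhmt signals, 29104 to 43259.

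Across the 12 mice the paralogues varied together (Pearson r = 0.78, permutation p = 0.00225, adjusted p = 0.00787 over 7 relations; Spearman rho = 0.66, permutation p = 0.0219, adjusted p = 0.0511). Without control-diet knockout replicates 1 and 3, the libraries farthest from the Bhmt median, r was 0.59 (permutation p = 0.0714), so the relation rests in part on them. Within the 6 knockout mice r was 0.90 and rho 0.89 (exact permutation p = 0.0306 and 0.0333, adjusted p = 0.0428 and 0.0583). Within the 6 WT mice r was 0.09 and rho 0.14 (exact permutation p = 0.863 and 0.803), and whether these differ was not tested. By diet, r was 0.61 and rho 0.37 in the 6 Western-diet mice (exact permutation p = 0.193 and 0.497) and r 0.89 and rho 0.94 in the 6 control-diet mice (exact permutation p = 0.0208 and 0.0167, adjusted p = 0.0365 and 0.0511). Each library carries its own scaling factor, which can move both genes together. With median centring r was 0.89, and with group means removed it was 0.80.

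Bhmt2 followed the first principal component of the other rows closely (r = -0.95, permutation p = 1e-05, the smallest that 100000 resamples can give, adjusted p = 7e-05; rho = -0.94, permutation p = 3e-05, adjusted p = 0.00021). Without the 2 libraries farthest from that component's median r was -0.94. The component held 66.1% of the variance of the other rows, so many rows can be expected to follow it. How many do so as closely was not counted, so the relation cannot be called particular to Bhmt2. The permutations ran over all 12 libraries and did not keep the 4 groups apart. Bhmt followed it less closely (r = -0.72, permutation p = 0.0083, adjusted p = 0.0194; rho = -0.53, permutation p = 0.0792, adjusted p = 0.111), and r was -0.55 without those libraries (permutation p = 0.0966). The libraries apart from their genotype on this component held the highest Bhmt2 value of each knockout group (4382 on Western and 4346 on control diet) and the lowest of control-diet WT mice (3855). They also held the highest Bhmt value of each knockout group (55773 and 43259) and the lowest of control-diet WT mice (48629). Knockout replicates 1 and 3 of each diet had the highest scores and also the highest library medians (log2 7.61 to 7.81). Medians were 7.37 to 7.47 elsewhere, so the component goes partly with the library-wide signal level. The part of this component, or of library scaling, in these relations and in the genotype differences was not tested.

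**Figure D5:**
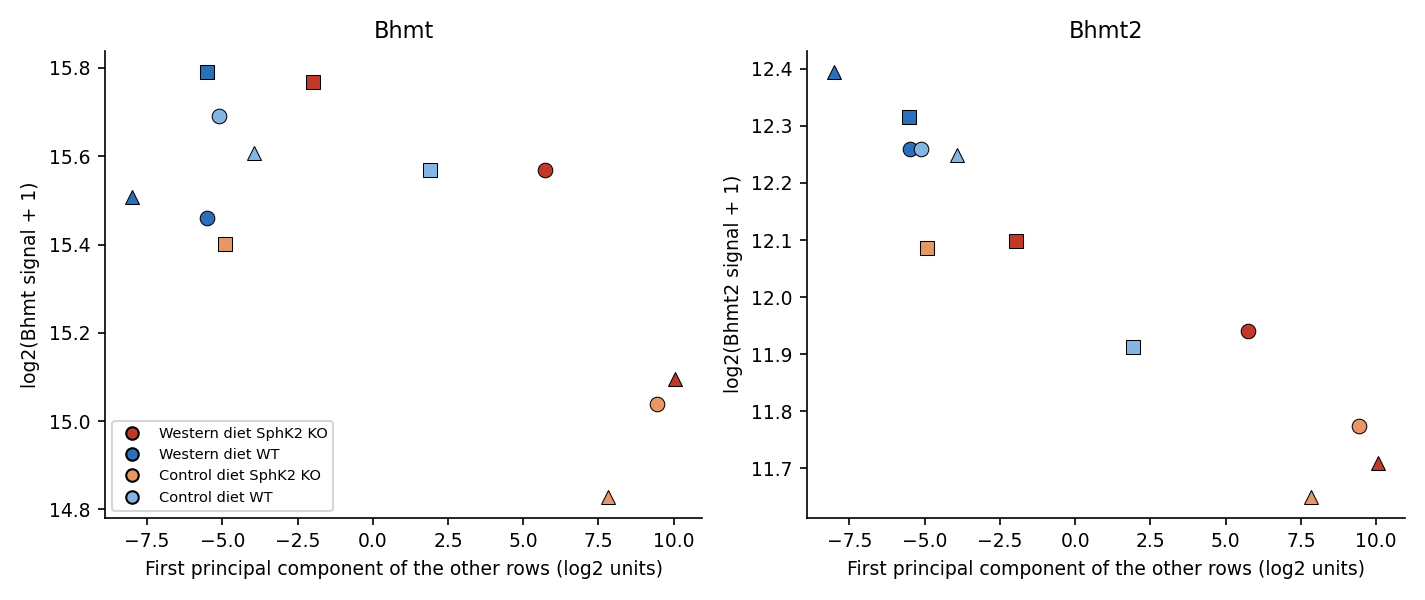
Log2(signal + 1) of Bhmt and Bhmt2 (y axes) against the library's score on the first principal component of 513 other rows (x axis), coloured by group and with circles, squares and triangles for replicates 1, 2 and 3. Bhmt2 declines along the whole axis (r = -0.95), while Bhmt is low mainly in the 3 knockout libraries with the highest scores.

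The genes most like each paralogue were listed. Among 80 other rows from A2m to Cat that were above 21 in every library, those most alike to Bhmt2 over 12 libraries were Ass1 (r = 0.96), Arg1 (0.96) and Asl (0.94), all enzymes of the urea cycle, and Agxt (0.94), the peroxisomal alanine-glyoxylate aminotransferase. Those most alike to Bhmt were Ak3 (r = 0.89), an adenylate kinase of the mitochondrial matrix, Cat (0.84), the peroxisomal catalase, Atp5k (0.84), a subunit of mitochondrial ATP synthase, and Adk (0.82), adenosine kinase. No gene stood in both lists, but with only 4 of 80 rows in each this does not show that the patterns differ. The paralogues themselves had r = 0.78, and how the genes of a list correlate with the other paralogue was not examined. The median r over the 80 rows was 0.10 for Bhmt2 and 0.08 for Bhmt. With group means removed, r was 0.88 to 0.93 for the 4 genes most like Bhmt2 and 0.77 to 0.93 for those most like Bhmt.

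The knockout fold changes of these genes are given beside those of the paralogues. On Western diet Ass1, Arg1, Asl and Agxt had log2 fold changes of -0.80, -0.64, -0.99 and -1.01, and on control diet of -0.61, -0.55, -0.66 and -0.59. Ak3, Cat, Atp5k and Adk had -0.14, -0.09, 0.01 and 0.05 on Western and -0.24, -0.27, -0.23 and -0.17 on control diet. None of the 8 passed on either diet (adjusted p = 0.153 to 1 by limma). The size of change was larger in all 4 genes most like Bhmt2 than in Bhmt2 itself, on both diets. These genes were picked by correlation over the same libraries, so a direction shared with the paralogue follows in part from that choice.

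At the other end, Bcl2a1a, a member of the Bcl-2 family expressed in leukocytes, ran opposite to both paralogues (r = -0.93 with Bhmt2 and -0.80 with Bhmt). Its signal spanned 63.5 to 442 around a median of 75.8, and its knockout log2 fold change was 1.55 ± 0.78 on Western and 1.46 ± 0.78 on control diet (adjusted p = 0.306 and 0.65 by limma). Cacng7, a calcium channel subunit (r = -0.92), and Apoc2, the apolipoprotein that activates lipoprotein lipase (-0.89), also ran opposite to Bhmt2. Akt1, a kinase of insulin and growth factor signalling (-0.82), and Aldoa, the glycolytic aldolase A (-0.80), ran opposite to Bhmt. The knockout fold changes of Cacng7, Apoc2, Akt1 and Aldoa were 1.10, 1.36, -0.07 and 0.32 on Western and 0.44, 0.53, 0.29 and 0.34 on control diet, and none passed. Bcl2a1a is a single gene and no marker list, and its part in the result was not tested.

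Of 48 listed genes of methyl-group, choline, glycine and polyamine metabolism, 12 had a row, of which only Bhmt and Bhmt2 lay from A2m to Cat. The other 10 rows, named Dmgdh, Gclc, Mat1a, Mat2a, Pemt, Sardh, Shmt1, Shmt2, Srm and Tyms, lay where names could not be relied on and are given by row name alone. None of the 10 passed in any of the 6 contrasts (0 higher and 0 lower by limma), where at most 0.136% of all rows passed. With names in doubt, their values describe rows and not the genes of this list. On Western diet their knockout fold changes ran from -0.82 to 0.67 with a median of -0.0025, against 0.03 over all rows, and on control diet from -0.27 to 0.18 with a median of -0.12, against 0.02 over all rows. The steps that make betaine and remove dimethylglycine could therefore not be followed with the paralogues.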

How the data were processed

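Total RNA of 12 mice, isolated with Trizol, was hybridised to barcoded probes, per the labels' protocols. The deposited values are a normalized signal whose software, reference genes and background step were not stated in any source used. Within each library, 100% of values between 21 and 3000 lay within 0.1 of a whole multiple of a single step, from which counts were recovered. Counts under the lowest listed value of 21 are lost, which bars a count model. All 12 columns are samples of the series, and 0 other columns were present.

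Groups came from the labels. Replicate numbers follow sample order, and p-values cover only differences among these animals. No replicate pair looked like a library deposited more than once (chi-square of 12.7 to 337 per degree of freedom over 538 rows and 12 pairs). log2(value + 1) was fitted in R 4.3.3 with limma 3.58.1 (lmFit, eBayes) as 4 group means over 12 libraries and 736 rows, with 8 residual degrees of freedom and Benjamini-Hochberg adjustment per contrast at 0.05. Errors of fold changes are moderated standard errors. The fit was tested on simulated data. Permutation tests used Python 3.11.15 and numpy 2.4.6, exact within 6 libraries or within diets and with 100000 resamples over 12. The component used rows with a mean above 50, without the paralogues. Named genes were the members, listed genes, and the 4 rows most and 3 least correlated with each member. Alternatives were median centring, a low-value filter (above 21 in at least 3 libraries), log2(value + 10), trended robust variances and array weights. Others were age, a position block (replicate 3 of each group against the other replicates), 2 groups alone, and leaving out each library. Promoter sequences are from RefSeq. The labelled diet durations, which conflict with the 16 weeks of the growth protocol, were not used. Members, lists and tests were chosen with earlier results of these data known.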

Additional observations from a re-analysis of the deposited data

Results flagged for a closer look

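The genotype effect on log2 Bhmt minus log2 Bhmt2 differed between the diets by 0.53 (0.30 on Western and -0.23 on control diet). What drew attention is a test added after the values had been seen, an exact permutation within diets with p = 0.015 and an adjusted p of 0.06 over 4 tests. Its relabelling takes genotype to have no effect on either diet, and the adjustment does not cover the choice of this contrast. On control diet the knockout mice were also the older ones by their labels, and with age as a covariate limma's interaction was 0.09 ± 0.26 for Bhmt, against 0.42 ± 0.27 without it, and -0.27 ± 0.23 for Bhmt2, against -0.10 ± 0.20. The age term rests mostly on Western-diet knockout replicate 3, so these adjusted values depend largely on that mouse. The paralogue difference itself was not fitted with age.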

How the results depend on the processing

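No paired analysis was possible because the replicate numbers only follow sample order and name no shared animal, litter or batch. With each library left out in turn, log2 fold changes of knockout against WT ranged, on Western diet, from -0.25 to 0.082 for Bhmt and from -0.50 to -0.30 for Bhmt2, on control diet from -0.69 to -0.40 and from -0.43 to -0.21, and over both diets from -0.40 to -0.23 and from -0.42 to -0.30. Those of Western against control diet ranged in knockout mice from 0.24 to 0.58 for Bhmt and -0.014 to 0.20 for Bhmt2, and in WT mice from -0.14 to 0.027 and 0.07 to 0.24. The interaction ranged from 0.28 to 0.61 for Bhmt and -0.20 to 0.021 for Bhmt2. The paralogue difference ranged from 0.22 to 0.41 on Western diet, -0.29 to -0.14 on control diet and -0.0023 to 0.088 over both, and r between the paralogues from 0.69 to 0.84. Rows past the threshold, over the same omissions, numbered 0 to 21 (genotype on Western diet), 0 to 3 (on control diet), 0 to 132 (over both), 0 to 0 (diet in knockout), 0 to 1 (diet in WT) and 0 to 1 (interaction).

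Array weights, from 0.214 for control-diet knockout replicate 2 to 8.16 for Western-diet knockout replicate 1, made calls in 331, 208, 379, 42, 1 and 20 rows in the same order. They are estimated from 3 mice per group and their estimate did not fully converge, so calls under them are given as an alternative and not as results. Under them Bhmt had 0.046 on Western diet, -0.73 on control diet, -0.34 over both, 0.64 for diet in knockout mice and 0.78 for the interaction, of which all but the first passed. Bhmt2 had -0.35, -0.49 and -0.42 for genotype, which passed, and 0.14 for the interaction, which did not. With age as a covariate, diet in knockout mice gave -0.0021 for Bhmt and -0.11 for Bhmt2 with 2 rows called, and 0 rows were called for genotype on Western diet. On Western diet 0 rows were also called with median centring, the low-value filter, the position block or the 2 groups alone, and 8 in a later fit on rows A2m through Cat only. Leaving out both control-diet libraries numbered 2, also added later, called 37 rows on Western diet, 26 on control diet and 155 over both, with -0.48 for Bhmt2 over both and 0.13 for its interaction. Counting error was small for both genes, at most 0.568% for Bhmt and 1.73% for Bhmt2.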
